A study of Mus musculus with 9 samples.

Results

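The genes described are 9 that make or move the transmitters of amacrine cells in the mouse retina. They were chosen by symbol, from a list written for this work and not by a rule on their values, though earlier results of these data were known. The values are the TPM (transcripts per 1000000) summed over all rows of a symbol. All 9 were found in every library, among 25239 gene names, and all 9 passed the filter on low values, a mean of at least 1 TPM, which 15198 genes passed. The RNA came from whole retinas of C57BL/6J mice at P42, with the retina pair of 1 mouse in each library. Of the 9 libraries, 3 were +/+ (wild type), 3 were *Rbpms*-CreERT2/+ (Cre/+) and 3 were *Rbpms*-CreERT2/CreERT2 (Cre/Cre), and the mice of all 3 genotypes came from the same litters. The knock-in allele joins a P2A-CreERT2 coding sequence to the end of the coding sequence of *Rbpms*, a marker gene of retinal ganglion cells (RGCs), so CreERT2 is made where *Rbpms* is expressed. The submitters' design text calls the knock-in genotypes knockouts, and no tamoxifen is given for these mice. The comparison asks whether the allele changes the transcriptome of the retina, here in a class of neurons other than RGCs.

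Amacrine cells are the inhibitory interneurons of the inner retina, and most use either GABA or glycine. The enzymes GAD67 and GAD65 make GABA from glutamate, a shared vesicular transporter, VGAT, loads GABA and glycine into vesicles, and glycinergic cells gather glycine through the plasma membrane transporter GlyT1. Starburst amacrine cells, which compute the direction of motion, also make acetylcholine, with choline acetyltransferase, a vesicular transporter and a choline transporter, and another small amacrine type carries the vesicular glutamate transporter VGLUT3. Horizontal cells also express GAD and VGAT, so in whole retina these transcripts are not from amacrine cells alone.

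The 9 genes lie on 6 chromosomes of mm10. Those of GABA synthesis and vesicular loading are all on the plus strand of chromosome 2, with *Gad1* (GAD67) at 70562129 to 70602014, *Gad2* (GAD65) at 22622327 to 22693877 and *Slc32a1* (VGAT) at 158610758 to 158615747. The glycine transporter genes are *Slc6a9* (GlyT1) on chromosome 4 at 117835258 to 117869305 and *Slc6a5* (GlyT2) on chromosome 7 at 49910299 to 49959493, both on the plus strand. *Chat* (choline acetyltransferase) covers 32408203 to 32465909 on the minus strand of chromosome 14, and *Slc18a3* (the vesicular acetylcholine transporter) lies inside it on the same strand, at 32462437 to 32464850. In GENCODE vM21, *Slc18a3* is 1 exon within the first intron of the longest coding transcript of *Chat*, an intron of 4893 bases, so reads from unspliced *Chat* RNA cannot be told apart there from reads of *Slc18a3*. *Slc5a7* (the high-affinity choline transporter) is on the minus strand of chromosome 17 at 54273590 to 54299034, and *Slc17a8* (VGLUT3) on the minus strand of chromosome 10 at 89574020 to 89621249. On the opposite strand, *Gad1* overlaps *Gad1os* by 1229 bases and *Slc6a9* overlaps *Ccdc24* by 46 bases. *Gad1os* was at 0 to 0.735 TPM. *Ccdc24* was at 273 to 349 TPM, and whether reads were assigned by strand is not given in the sources used here.

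The transcripts differ in base composition, which bears on the genotype comparison. The GC content of the longest protein-coding GENCODE transcript was 61.9% for *Slc32a1*, 61.2% for *Slc18a3*, 57.0% for *Slc6a9*, 54.3% for *Chat*, 48.4% for *Gad1*, 48.2% for *Slc6a5*, 44.1% for *Gad2*, 44.0% for *Slc17a8* and 40.8% for *Slc5a7*. Of the 14861 tested genes with a GC value, 97.4% had a lower GC content than *Slc32a1* and 7.23% a lower one than *Slc5a7*. The first 150 coding bases of the pair richest and the pair poorest in G and C show the contrast, with G and C in capitals.
Slc32a1: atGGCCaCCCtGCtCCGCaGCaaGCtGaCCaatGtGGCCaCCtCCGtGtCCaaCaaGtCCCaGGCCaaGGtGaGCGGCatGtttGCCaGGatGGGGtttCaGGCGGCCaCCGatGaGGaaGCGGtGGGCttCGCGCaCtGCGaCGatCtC
Slc18a3: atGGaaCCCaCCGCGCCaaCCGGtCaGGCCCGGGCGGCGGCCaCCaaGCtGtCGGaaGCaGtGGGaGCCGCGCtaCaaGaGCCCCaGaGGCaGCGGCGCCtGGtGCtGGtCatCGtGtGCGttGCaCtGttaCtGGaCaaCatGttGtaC
Slc17a8: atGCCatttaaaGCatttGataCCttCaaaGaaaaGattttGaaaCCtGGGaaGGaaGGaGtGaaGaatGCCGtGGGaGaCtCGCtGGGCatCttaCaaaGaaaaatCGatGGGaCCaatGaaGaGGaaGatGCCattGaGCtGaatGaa
Slc5a7: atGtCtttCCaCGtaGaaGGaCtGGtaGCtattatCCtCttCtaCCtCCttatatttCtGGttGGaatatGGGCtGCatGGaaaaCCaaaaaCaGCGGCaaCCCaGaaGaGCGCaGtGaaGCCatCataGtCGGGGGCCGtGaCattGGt
They are read from the longest protein-coding GENCODE transcript of each gene on GRCm38, the assembly of mm10, and run 5′ to 3′ on the coding strand from the start codon. That of *Slc32a1* is at chr2:158611242-158611391 on the plus strand. Those of *Slc18a3*, at chr14:32464275-32464424, and *Slc5a7*, at chr17:54296987-54297136, are on the minus strand and each lie in 1 exon. That of *Slc17a8* is also on the minus strand, in 2 exons, 101 bases at chr10:89620799-89620899 and 49 at chr10:89606820-89606868. G and C made up 63.3% of the 150 bases of *Slc32a1*, 65.3% of those of *Slc18a3*, 42% of those of *Slc17a8* and 48% of those of *Slc5a7*.

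The libraries held 4.05 to 4.65 aligned gigabases each. *Rbpms*, the targeted gene, was at 43.2, 38.4 and 43.4 TPM in +/+, at 31.3, 32.2 and 33.1 in Cre/+, and at 19.7, 19.1 and 24.2 in Cre/Cre, so its level followed the labels. Its log2 fold change was -0.36 (limma adjusted p = 0.355) in Cre/+ and -0.96 (SE 0.10, limma adjusted p = 0.000581) in Cre/Cre. The paper, which required a fold change above 2, reported no significant change of *Rbpms* RNA and similar RBPMS staining in the 3 genotypes. One library stood apart. In Cre/Cre replicate 1, Rn45s (the ribosomal RNA precursor) took 9.21% of the TPM, against 0.0827% to 0.336% in the other 8, and by construction this lowers the TPM of the remaining genes there. *Xist*, transcribed from the inactive X chromosome, was at 516 to 585 TPM in 6 libraries, among them all 3 of +/+, and at 2.08 to 3.16 TPM in Cre/+ replicate 3, Cre/Cre replicate 1 and Cre/Cre replicate 3. The sex that *Xist* marks thus went partly with genotype, most in Cre/Cre against +/+, and cannot be fully told apart from it. Of the 8 markers listed for amacrine cells and the 4 for starburst cells, none was at 0 in all libraries, and the amacrine list summed to 1548 to 1980 TPM.

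In +/+ retinas the 9 genes together made up 793 TPM, or 0.0793% of all TPM, and spanned a 24.6-fold range. *Gad1* was the highest, at 287 TPM ± 5.74 (SD, n = 3), and *Slc6a9* followed at 274 ± 18.9. Their libraries overlapped, so these neighbours in the order did not differ beyond their spread. *Slc32a1*, whose product serves both transmitters, was at 120 ± 3.06, and *Gad2* at 36.9 ± 1.44. *Slc17a8* was at 20.9 ± 1.76, with no library at the level of *Chat*. *Chat* at 16.6 ± 2.29, *Slc6a5* at 13.9 ± 0.849, *Slc5a7* at 12.0 ± 2.12 and *Slc18a3* at 11.7 ± 1.45 each overlapped the next in the order. In Cre/+ and Cre/Cre the first 6 genes kept this order, *Slc5a7* stood above *Slc6a5*, and in Cre/+ *Gad1* and *Slc6a9* no longer overlapped. By mean TPM, *Gad1* was thus 7.79 times *Gad2*, and *Slc6a9* was 19.7 times *Slc6a5*, the glycine transporter best known from spinal cord and brainstem. The 3 cholinergic genes summed to 40.2 TPM. Among the tested genes, 504 were above *Gad1* and 10479 above *Slc18a3* in mean +/+ TPM.

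The place of *Slc6a9* in this order depended on the deposited measure. StringTie also gives a coverage, which is the read depth averaged along the gene. For *Gad2*, *Slc32a1*, *Chat*, *Slc18a3* and *Slc5a7*, coverage and FPKM stood in the ratio that most genes of a library shared. For *Slc6a9* that ratio was 0.179 to 0.180 of the shared value in every library. It was 0.819 to 0.822 for *Gad1*, 0.943 to 0.945 for *Slc17a8* and 0.986 to 0.996 for *Slc6a5*. For the targeted gene *Rbpms* it was 0.452 to 0.471. Of the tested genes, 6.58% had a ratio under 0.5 of the shared value and 70.0% one of at least 0.98. With coverage scaled to the total of the TPM in each library, *Gad1* stood at 261, *Slc32a1* at 132, *Slc6a9* at 54.4 and *Gad2* at 40.8 in +/+, so that *Slc6a9* came after *Slc32a1* and its libraries no longer overlapped those of *Gad1*. *Slc6a5* stood at 15.3 on that scale, so *Slc6a9* exceeded it by far less than the 19.7 times found with TPM. *Slc6a9* has 12 annotated transcripts in GENCODE, the most of the 9 genes, and the part of transcript structure in the 2 measures was not tested. The ratio was nearly the same in all 9 libraries. The log2 fold changes of *Slc6a9* in Cre/+ and Cre/Cre were -0.10 and -0.05 with TPM, -0.10 and -0.06 with coverage, and -0.13 and -0.11 with FPKM.

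**Figure D1:**
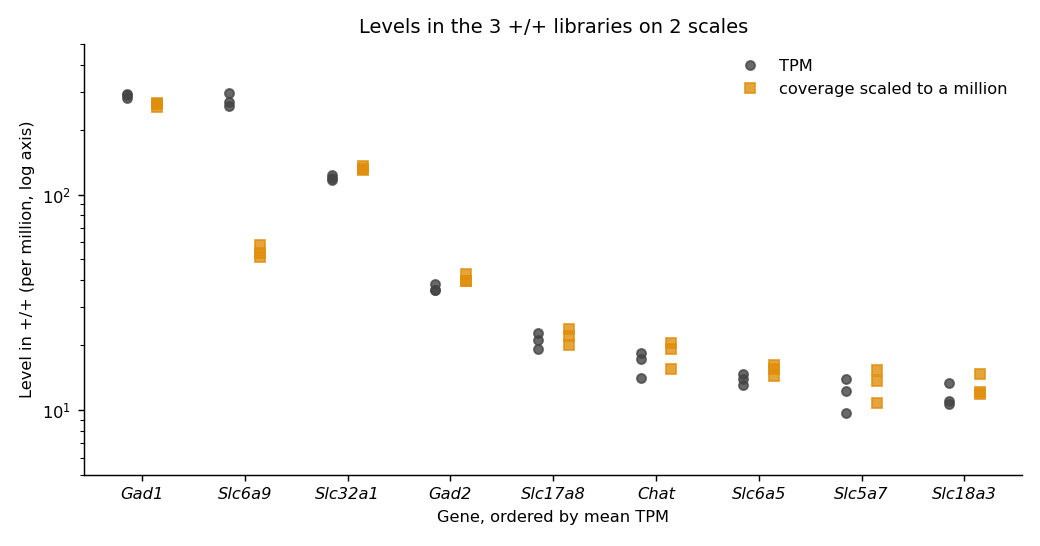
Levels of the 9 genes in the 3 +/+ libraries, as TPM (circles) and as deposited coverage scaled to the same total (squares), 1 point per library on a log axis. *Slc6a9* lies beside *Gad1* near 274 TPM by TPM and falls to 54.4 by coverage, while the other genes move little.

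None of the 9 genes was called between genotypes. The test was limma on log2(TPM + 1) with genotype as its only term over all 9 libraries, and a call needed an adjusted p of at most 0.05 by the Benjamini-Hochberg method over the 15198 tested genes. Calls were 0 of 9 in Cre/+ against +/+, where 0.00658% of all tested genes were called, 0 of 9 in Cre/Cre against +/+, where the share was also 0.00658%, and 0 of 9 in Cre/Cre against Cre/+, where it was 0.0132%. At an unadjusted p under 0.05 in limma, 1 of 9 was lower in Cre/+ (5.82% of all genes), 1 of 9 lower in Cre/Cre (5.39%) and 1 of 9 lower in Cre/Cre against Cre/+ (4.2%). None of the 9 was higher in these comparisons, where 4.9%, 1.58% and 2.38% of all genes were. The median log2 fold change of the 9 genes was -0.00 in Cre/+ and -0.05 in Cre/Cre, beside 0.00 and -0.02 over all tested genes. Over the 9 genes the 95% intervals ran from -0.34 to 0.41 in Cre/+ and from -0.43 to 0.43 in Cre/Cre, so a 2-fold change lay outside the interval of each. In bulk retina, fewer cells of a type and less RNA per cell cannot be told apart.

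**Figure D2:**
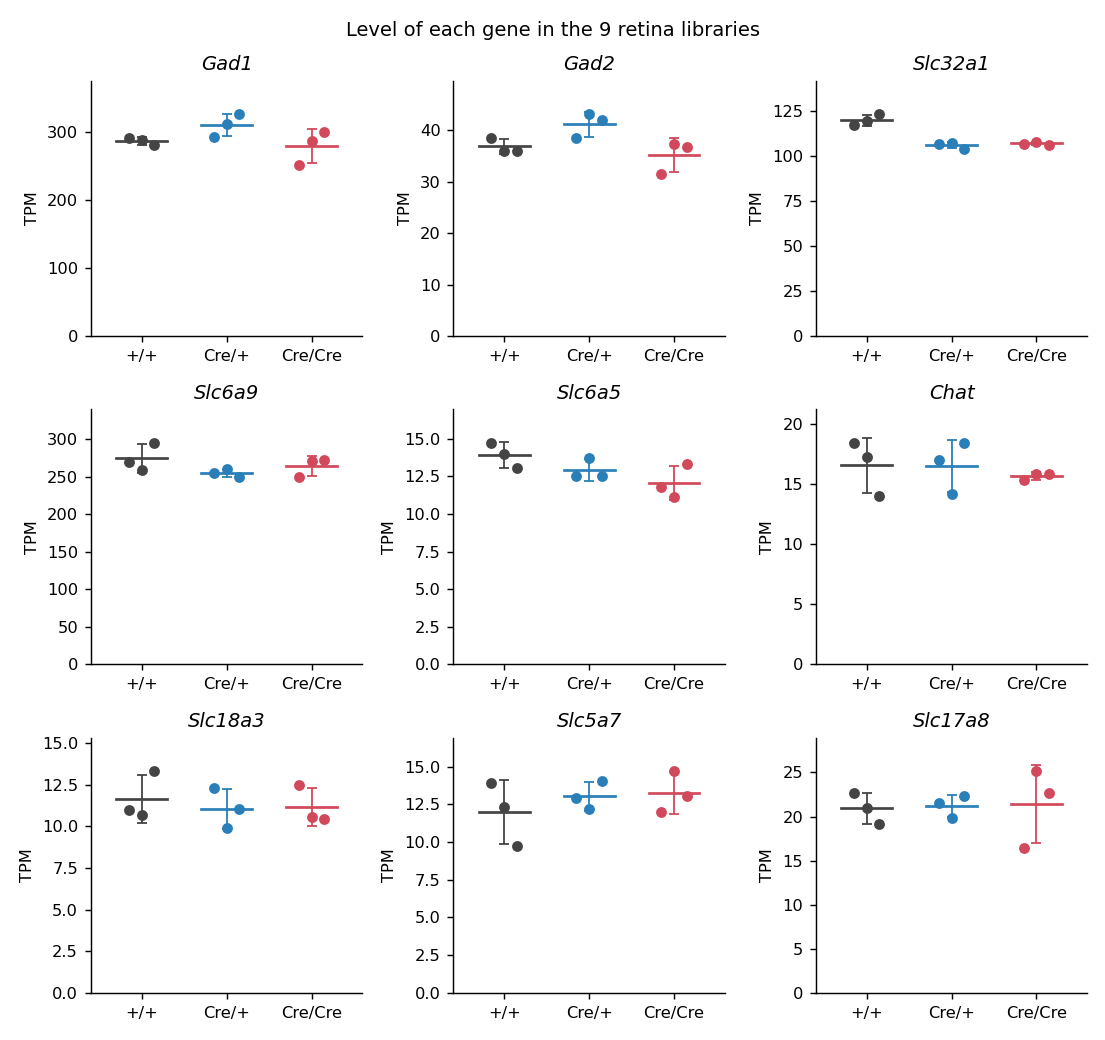
TPM of each gene by genotype, 1 point per library (replicates 1 to 3 from left to right), with the mean as a horizontal line, the SD as an error bar and axes from 0. In *Slc32a1* the 3 +/+ libraries, from 117 to 123 TPM, sit above all 6 knock-in libraries, from 104 to 108, and in the other 8 genes at least 1 knock-in genotype overlaps +/+.

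*Slc32a1* was the gene with the smallest p in both comparisons with +/+. Its libraries were at 117, 119 and 123 TPM in +/+, at 107, 107 and 104 in Cre/+, and at 107, 108 and 106 in Cre/Cre. Both knock-in genotypes lay below +/+ without overlap and on top of each other. The log2 fold change was -0.17 (SE 0.07, limma unadjusted p = 0.0207, adjusted p = 0.405) in Cre/+ and -0.16 (limma unadjusted p = 0.0296, adjusted p = 0.668) in Cre/Cre, and 0.01 between Cre/Cre and Cre/+. Values that lay wholly below +/+ were found in 10.3% of all tested genes in Cre/+ and in 8.05% in Cre/Cre. With median-ratio scaling, which divides each library by its typical ratio to the others, Cre/Cre replicate 1 rose to 116 and +/+ replicate 1 was at 115, and the Cre/Cre and +/+ libraries overlapped. The Cre/+ libraries stayed between 102 and 107 on that scale, below +/+.

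*Gad1* and *Gad2*, the enzymes of GABA synthesis, differed most between the knock-in genotypes. *Gad1* was at 292, 289 and 281 TPM in +/+, at 294, 312 and 327 in Cre/+, and at 252, 287 and 300 in Cre/Cre. Cre/+ lay above +/+ without overlap, as did 11.9% of all tested genes, by a log2 fold change of 0.11 (SE 0.08, limma adjusted p = 0.597), and Cre/Cre overlapped both. *Gad2* was at 38.5, 36.0 and 36.1 TPM in +/+, at 38.5, 43.1 and 42.1 in Cre/+, and at 31.5, 37.4 and 36.9 in Cre/Cre. Cre/Cre lay below Cre/+ without overlap, as did 7.23% of all tested genes, by a log2 fold change of -0.22 (SE 0.09, limma unadjusted p = 0.0220, adjusted p = 0.740). Against +/+ the log2 fold change of *Gad2* was 0.16 in Cre/+, 0.05 there after centring in bins of GC content, and -0.07 in Cre/Cre. Cre/Cre replicate 1, the library with the Rn45s share of 9.21%, was the lowest of the 9 in both genes. Without that library, the log2 fold change of *Gad2* between Cre/Cre and Cre/+ was -0.15.

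The glycine transporter genes gave intervals that included 0 in each comparison. *Slc6a9* was at 270, 258 and 295 TPM in +/+, at 255, 260 and 250 in Cre/+, and at 249, 271 and 273 in Cre/Cre. Its log2 fold change was -0.10 (SE 0.07, limma adjusted p = 0.607) in Cre/+ and -0.05 (limma adjusted p = 0.947) in Cre/Cre, and the libraries of the 3 genotypes overlapped. Without +/+ replicate 3, the highest library, these values were -0.05 and -0.00045. *Slc6a5* was at 14.7, 14.0 and 13.0 TPM in +/+, at 12.5, 13.7 and 12.5 in Cre/+, and at 11.8, 11.2 and 13.3 in Cre/Cre. Its log2 fold change in Cre/Cre was -0.19 (SE 0.11, limma adjusted p = 0.806), with 1 Cre/Cre library inside the +/+ range.

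The cholinergic genes and *Slc17a8* overlapped between all genotypes. *Chat* was at 18.5, 17.3 and 14.0 TPM in +/+, at 17.0, 14.2 and 18.4 in Cre/+, and at 15.3, 15.9 and 15.9 in Cre/Cre. *Slc18a3* was at 11.0, 10.7 and 13.3 TPM in +/+, at 12.3, 9.90 and 11.0 in Cre/+, and at 12.5, 10.6 and 10.5 in Cre/Cre. By its coverage and length of 2414 bases, *Slc18a3* rested on about 95.7 to 134 fragments per library with both mates of a pair taken as 1, which gives a counting error of 8.65% to 10.2%. *Slc5a7* was at 13.9, 12.3 and 9.71 TPM in +/+, at 12.9, 12.2 and 14.0 in Cre/+, and at 12.0, 14.7 and 13.1 in Cre/Cre. Its log2 fold change in Cre/Cre was 0.14 (SE 0.13, limma adjusted p = 0.895), and 0.01 without +/+ replicate 3, the lowest library. *Slc17a8* was at 22.7, 21.0 and 19.1 TPM in +/+, at 21.5, 19.8 and 22.3 in Cre/+, and at 16.5, 25.1 and 22.6 in Cre/Cre, and its coefficient of variation of 20.8% in Cre/Cre was the highest of any of the 9 genes in any genotype.

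**Figure D3:**
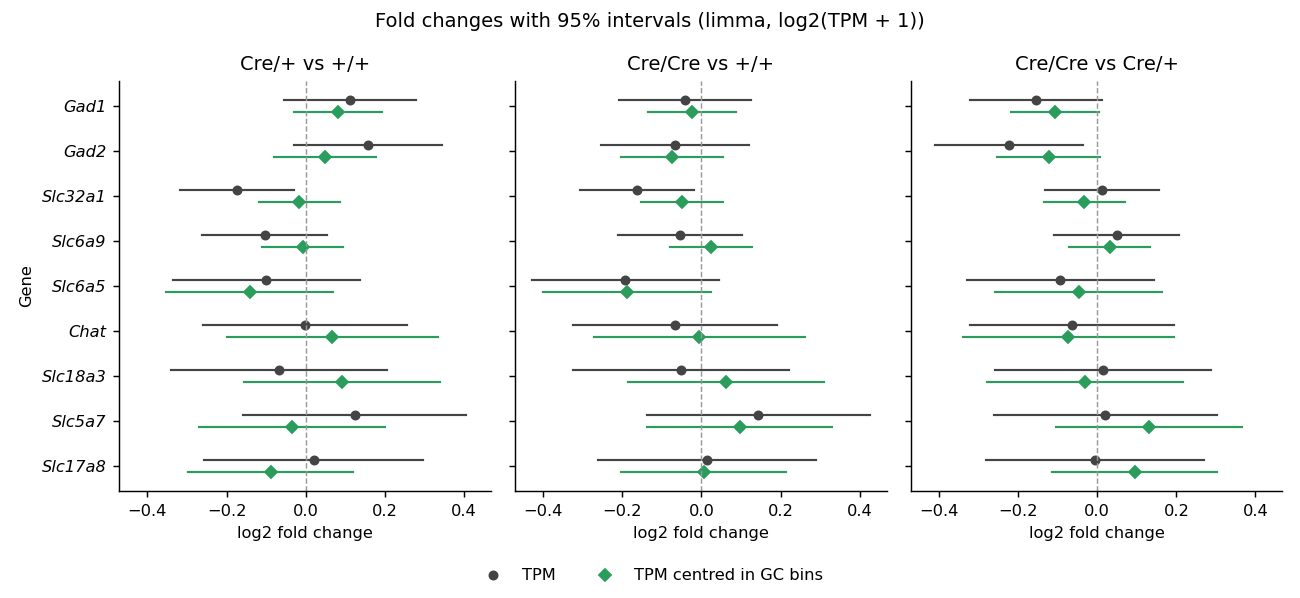
Log2 fold changes of the 9 genes with 95% intervals from limma in the 3 comparisons, from TPM (circles) and after centring each library within bins of transcript GC content (diamonds). The intervals from TPM leave out 0 for *Slc32a1* in both comparisons with +/+ and for *Gad2* between the knock-in genotypes, and after centring all 27 intervals include 0.

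The fold changes of the 9 genes in Cre/+ followed the GC content of their transcripts, as those of all genes did. Over the 14861 genes with a GC value, Spearman's rho between GC content and log2 fold change was -0.59 in Cre/+, -0.33 in Cre/Cre and 0.35 between Cre/Cre and Cre/+. Over the 9 genes it was -0.77, -0.50 and 0.25. These are correlations across genes that share the same libraries and are not independent replicates, so no p is given. In 20 bins of GC content, the median log2 fold change in Cre/+ went from 0.19 in the bin poorest in G and C to -0.17 in the richest, and in Cre/Cre from 0.07 to -0.11. *Slc32a1* is in the richest bin, and its log2 fold change of -0.17 in Cre/+ stood beside a bin median of -0.17. In Cre/Cre it stood at -0.16 against a bin median of -0.11. *Slc18a3* is in the same bin and was at -0.07 in Cre/+ and -0.05 in Cre/Cre. *Gad2*, in the fourth bin, was at 0.16 in Cre/+ against a bin median of 0.11, and *Slc5a7*, in the second, at 0.12 against 0.16. *Slc6a5* was farther from its bin, at -0.10 in Cre/+ against 0.04 and at -0.19 in Cre/Cre against -0.00.

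**Figure D4:**
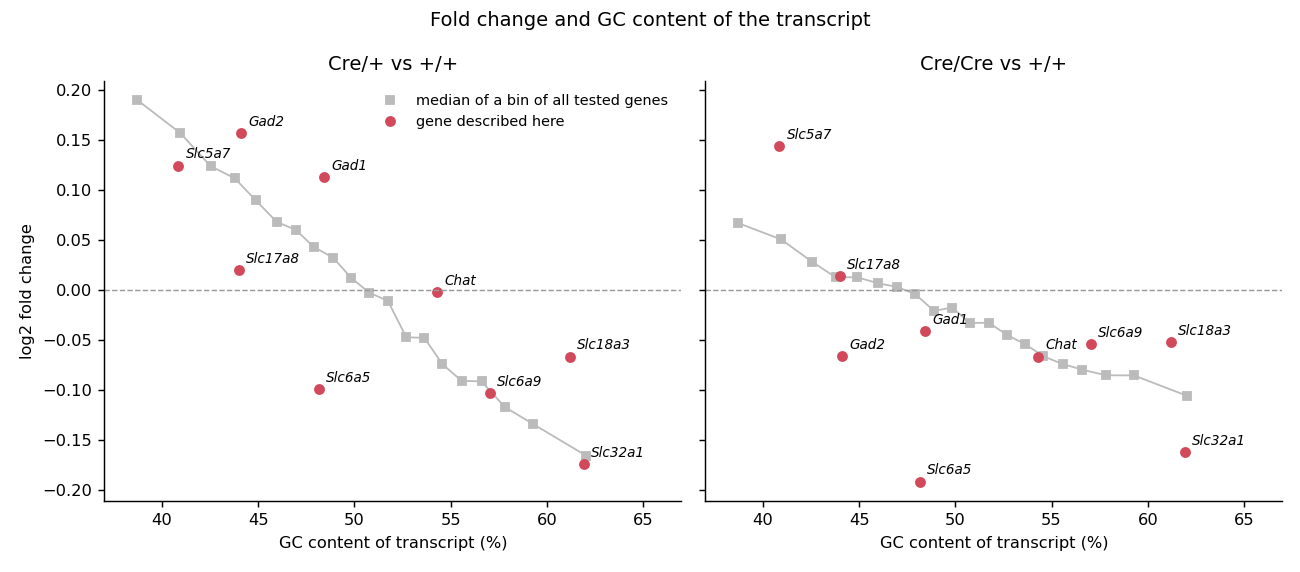
Log2 fold change against transcript GC content in Cre/+ (left) and Cre/Cre (right), with the median of each of 20 bins of all tested genes (squares, at the bin's median GC) and the 9 genes (circles). In Cre/+ the bin medians fall from 0.19 to -0.17 and *Slc32a1* lies on the last of them, while *Slc6a5* lies below the line in both panels.

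The same bins were used to centre each library, an alternative chosen after the values were seen. Each library's typical deviation within a bin is then set to 0, so any true difference that runs with GC content is removed as well. Centred values of *Slc32a1* were 116, 112 and 109 TPM in +/+, 112, 113 and 107 in Cre/+, and 110, 109 and 107 in Cre/Cre, and the genotypes overlapped. Its log2 fold change became -0.02 (95% interval -0.12 to 0.09, limma unadjusted p = 0.741) in Cre/+ and -0.05 (-0.15 to 0.06, limma unadjusted p = 0.328) in Cre/Cre. That of *Slc6a9* in Cre/+ went from -0.10 to -0.0076. That of *Gad2* between Cre/Cre and Cre/+ became -0.12 (limma unadjusted p = 0.0615). *Slc6a5* moved little in Cre/Cre, to -0.19 (limma unadjusted p = 0.0761). The slope with GC content varied between libraries of 1 genotype too. The difference between the richest and the poorest bin, as the median log2 deviation from each gene's mean, was -0.01, 0.20 and 0.33 in the +/+ libraries, -0.18, -0.16 and -0.18 in Cre/+, and 0.17, -0.08 and -0.11 in Cre/Cre. All 3 +/+ libraries lay above all 3 Cre/+ libraries, so a slope with GC content and the Cre/+ genotype cannot be told apart in these samples.

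Ratios within a library do not move with its scaling, and 5 were computed for the 3 comparisons, 15 in all. With 3 libraries against 3, the exact two-sided permutation test cannot give a p below 0.1, so none of the 15 could pass 0.05. *Gad2* was 12.3% to 13.8% of *Gad1* in all 9 libraries. Its highest value was 1.12 times its lowest, against 1.33 to 1.60 times for the other 4 ratios. By TPM, *Slc6a5* was 4.42% to 5.47% of *Slc6a9* in +/+, 4.91% to 5.29% in Cre/+ and 4.12% to 4.89% in Cre/Cre. The size of this ratio depended on the measure, since by scaled coverage the +/+ means were 15.3 for *Slc6a5* and 54.4 for *Slc6a9*. *Slc18a3* was 59.4% and 61.9% of *Chat* in 2 +/+ libraries and 94.9% in the other, a range that covered all the knock-in libraries. *Slc5a7* was 69.2% to 75.3% of *Chat* in +/+, 75.7% to 85.8% in Cre/+ and 78.1% to 92.5% in Cre/Cre. Both knock-in genotypes lay above +/+ without overlap (exact permutation p = 0.1 each, the smallest possible), by a log2 difference of 0.14 and 0.23. *Chat* has 54.3% GC and *Slc5a7* 40.8%. From the values centred in GC bins, the ratio was 75.5% to 81.7% in +/+, 68.8% to 80.2% in Cre/+ and 78.7% to 90.4% in Cre/Cre, so that both knock-in genotypes overlapped +/+ and the log2 difference in Cre/+ turned to -0.11. *Slc32a1* was 40.1% to 43.8% of *Gad1* in +/+, 31.8% to 36.3% in Cre/+ (exact permutation p = 0.1) and 35.4% to 42.3% in Cre/Cre (exact permutation p = 0.3), and this pair was chosen after the values were seen. Its genes also differ in GC content, at 61.9% and 48.4%, and from the centred values the ratio was 37.8% to 40.4%, 33.8% to 38.8% and 36.4% to 39.6%, with overlap.

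**Figure D5:**
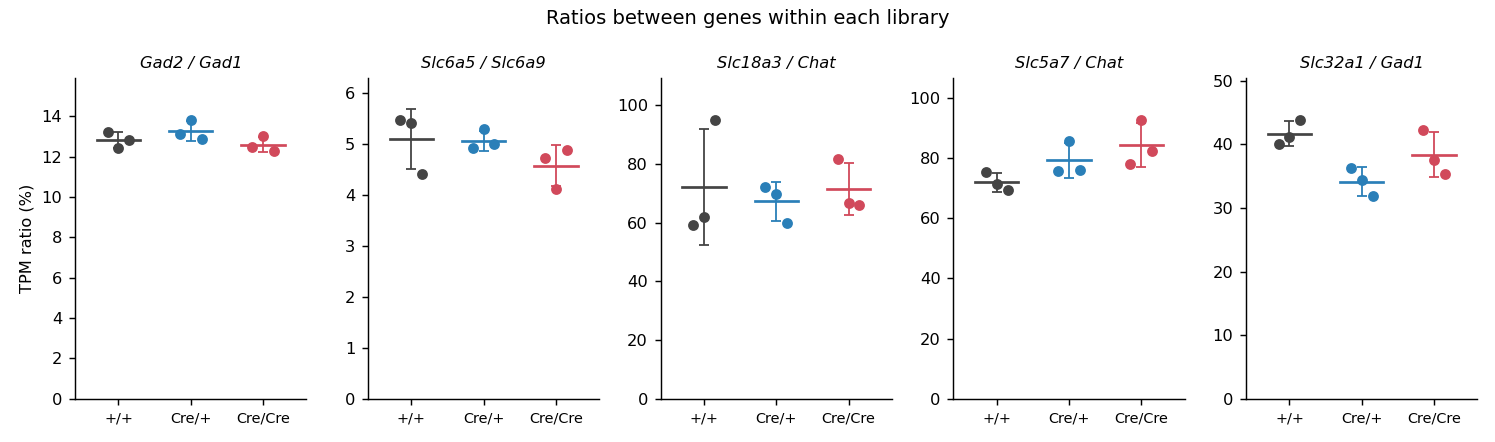
TPM of 1 gene as a percentage of another within each library, by genotype, with points for libraries, lines for means and bars for SDs on axes from 0. *Gad2* stays between 12.3% and 13.8% of *Gad1*, *Slc5a7* to *Chat* is lowest in +/+, and +/+ replicate 3 stands apart at 94.9% for *Slc18a3* to *Chat*.

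Over the 9 libraries, Pearson's r between the 36 pairs of the 9 genes on the log2(TPM + 1) scale ran from -0.61, between *Slc5a7* and *Slc18a3*, to 0.93, between *Gad1* and *Gad2*, with 16 pairs below 0. Without Cre/Cre replicate 1 these values were -0.60 and 0.86. Other pairs hung on that library. Leaving it out took r from -0.27 to -0.70 between *Slc32a1* and *Gad1*, from -0.08 to -0.67 between *Gad1* and *Slc6a9*, and from 0.59 to 0.02 between *Gad1* and *Slc17a8*. Within the cholinergic set, r was 0.68 between *Chat* and *Slc5a7* and -0.19 between *Chat* and *Slc18a3*, and 0.67 and -0.12 without that library. The tested gene most like each one, with the 9 genes left out, was *Asap1* for *Gad1* (r = 0.99), *Mark1* for *Gad2* (0.98), *Gapdh* for *Slc32a1* (0.97), *Vars* for *Slc6a9* (0.96), *Ormdl3* for *Slc6a5* (0.91), *Tatdn3* for *Chat* (0.93), *Rnf32* for *Slc18a3* (0.94), *Zfp952* for *Slc5a7* (0.95) and *Ibtk* for *Slc17a8* (0.97). Each is the highest value among all other tested genes, over libraries that share genotype, scaling and the GC slope, and is given as a description.

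Further lists held 28 genes that handle GABA, glycine or acetylcholine, or that load other transmitters into vesicles. Of these, 25 were tested and 0 were called in any of the 3 comparisons. At an unadjusted p under 0.05 in limma, 2 of 25 were lower in Cre/+ (5.82% of all tested genes) and 0 of 25 in Cre/Cre (5.39%), and none was higher (4.9% and 1.58%). The median log2 fold change of the 25 was 0.00 in Cre/+ and -0.07 in Cre/Cre, beside 0.00 and -0.02 over all tested genes. Among the genes of glycine handling the highest in +/+ were *Gcsh*, at 65.3 TPM ± 5.94 (SD, n = 3), and *Amt*, at 59.7 ± 2.19, both of the glycine cleavage system. *Slc38a5*, an amino acid transporter that carries glutamine and glycine, was at 1.26, 2.18 and 1.44 TPM in +/+, at 0.975, 0.874 and 0.524 in Cre/+, and at 1.45, 0.693 and 0.629 in Cre/Cre. Its log2 fold change in Cre/+ was -0.54 (limma unadjusted p = 0.0388, adjusted p = 0.444), at levels near the filter.

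*Ache*, which breaks down acetylcholine, and *Chkb*, a choline kinase, were the highest of the acetylcholine list, at 99.2 TPM ± 9.62 and 95.2 ± 5.09 in +/+ (SD, n = 3). *Ache* was at 91.6, 95.9 and 110.0 TPM in +/+, at 85.9, 82.6 and 89.0 in Cre/+, and at 86.9, 90.9 and 99.8 in Cre/Cre. Its log2 fold change in Cre/+ was -0.20 (limma unadjusted p = 0.0289, adjusted p = 0.422) and in Cre/Cre -0.10. Among the other vesicular transporters *Slc17a7* (VGLUT1, of photoreceptors and bipolar cells) was at 1477 TPM ± 18.8 and *Slc17a6* (VGLUT2, of RGCs) at 62.5 ± 5.95 in +/+. Between Cre/Cre and Cre/+, 1 of the 25 genes was lower at an unadjusted p under 0.05 (4.2% of all tested genes), *Prima1*, the membrane anchor of acetylcholinesterase, at -0.42 (limma adjusted p = 0.740). In the same comparison 1 was higher, *Slc17a9*, the vesicular nucleotide transporter, at 0.64 (limma adjusted p = 0.740), where 2.38% of all tested genes were higher. It was at 1.31, 0.286 and 0.679 TPM in Cre/+ and at 1.24, 2.06 and 1.74 in Cre/Cre, levels near the filter. *Prima1* and *Slc17a9* were outside the rule for named genes and were chosen after their values were seen.

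Markers of amacrine cells gave values beside which those of the 9 genes can be read. Of the 8 amacrine markers, which include the transcription factors *Pax6* and *Tfap2b*, 3 had a log2 fold change below 0 in Cre/+ and all 8 in Cre/Cre. Of the 15198 tested genes, 7533 and 8772 were below 0. The medians of the 8 were 0.07 and -0.09, beside 0.00 and -0.02 over all tested genes. In Cre/Cre all 5 rod, all 5 bipolar and all 5 Mueller glia markers were also below 0, with medians of -0.08, -0.10 and -0.11. All 8 RGC markers were below 0 in Cre/Cre too, with a median farther from 0, at -0.33. At an unadjusted p under 0.05 in limma, 7 of these 8 were lower (5.39% of all tested genes). The targeted gene *Rbpms* was the 1 RGC marker called. Of the 4 lens markers, 0 were below 0 in Cre/Cre. None of the 8 amacrine markers was called. At an unadjusted p under 0.05 in limma *Stx1a* was lower in Cre/+ (5.82% of all tested genes) and *Calb2* and *Stx1a* were lower in Cre/Cre (5.39%). Summed, the amacrine markers were at 1809 to 1975 TPM in +/+, 1897 to 1980 in Cre/+ and 1548 to 1879 in Cre/Cre, with the lowest value in Cre/Cre replicate 1. Most of this was *Snhg11* and *Calb2*, at means of 756 and 591 TPM in +/+, so the sum says little of the other markers. The 4 starburst markers summed to 150 to 167 TPM in +/+, 166 to 168 in Cre/+ and 126 to 162 in Cre/Cre. Most of that sum was *Isl1*, at a mean of 91.5 TPM in +/+ and also expressed in bipolar cells and RGCs, and *Sox2*, at 50.8 and also expressed in Mueller glia. *Megf10*, at 14.5 TPM in +/+, and *Sox2* gave log2 fold changes of 0.09 and -0.23 in Cre/Cre (for *Sox2*, limma unadjusted p = 0.0112, adjusted p = 0.624). The other starburst markers, *Isl1* and *Fezf1*, were both at -0.05 in Cre/Cre. The 4 markers of horizontal cells summed to 99.3 to 118, 113 to 117 and 89.6 to 109, and most of this was *Calb1*, at a mean of 92.2 TPM in +/+. In Cre/Cre against +/+, *Onecut1* was at -0.43 (limma unadjusted p = 0.0181, adjusted p = 0.655), *Lhx1* at -0.12, *Calb1* at -0.11 and *Onecut2* at 0.12. The 8 RGC markers, with *Slc17a6* and the targeted gene *Rbpms* among them, summed to 1308 to 1347, 1241 to 1273 and 959 to 1147, without overlap between genotypes. Of single tested genes, 10.3% lay wholly lower in Cre/+ than in +/+ and 8.05% in Cre/Cre than in +/+. Between Cre/Cre and Cre/+ that share was 7.23%. The 5 blood markers summed to 150 to 182 TPM in +/+, 92.5 to 105 in Cre/+ and 185 to 300 in Cre/Cre, also without overlap. Of single tested genes, 2.7% lay wholly higher in Cre/Cre than in +/+ and 4.76% than in Cre/+. The single blood genes did not move together. *Hba-a1* was at 0 TPM in all +/+ libraries, where *Hba-a2* was at 104 to 165. *Hbb-bt* was at 0 in all Cre/+ libraries and was the 1 tested gene called in Cre/+ against +/+ (limma adjusted p = 0.00256). The 4 lens markers summed to 149 to 210, 12.5 to 157 and 75.4 to 1044. The part of these in the values of the 9 genes was not tested.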

How the data were processed

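The libraries were strand-specific, poly(A)-selected and sequenced as paired reads of 150 bases. Reads were trimmed (Trimmomatic), aligned to mm10 (HISAT2) and turned into gene values (StringTie) by the authors. Versions of these tools and the annotation are not given in the sources used here. The deposited TPM sum to 1000000 in each library. The deposited FPKM and coverage (average read depth along a gene, a signal) come from the same StringTie tables. Without read counts, the planned test for TPM was used, and the DESeq2 test of the authors was not repeated. Coverage divided by FPKM gave the aligned gigabases, 4.05 to 4.65 in each library, with a median of 4.33.

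TPM were summed by symbol, and the 15198 genes with a mean of at least 1 were tested with limma 3.58.1 (trend and robust prior) in R 4.3.3, on log2(TPM + 1), which understates changes of low genes. The 9 libraries entered 1 model with 6 residual degrees of freedom, and p-values measure the spread between mice. The filter used no group labels. On simulated data for Cre/Cre against +/+ with 200 of 15198 genes lowered, 169 were recovered at 2-fold, 89 at 1.5-fold and 0 at 1.2-fold. Calls among the unchanged genes were 10, 3 and 0. Each gene was drawn on its own there, without a GC slope, an Rn45s share or a difference in *Xist*, so the counts hold for such data only. The genes and lists were chosen with earlier results of these data known. All 9 genes are named with their values. Of the related genes, those with an unadjusted p under 0.05 against +/+ or among the 2 highest of their list are named, as are the targeted gene, genes overlapping one of the 9, and the gene with the highest Pearson r. Single genes of the GABA handling list are not reported here. GC content came from GENCODE vM21 transcripts (longest protein-coding, otherwise longest) for 97.8% of the tested genes. Alternatives were a pseudocount of 0.1, no filter or 5 TPM, replicate number as a block, only the genotypes compared, each library left out, median-ratio scaling, FPKM, short RNA genes left out, *Xist* as a covariate, and no robust prior. Chosen after seeing the data were coverage, only *Xist*-expressing libraries, median-ratio scaling without Cre/Cre replicate 1, GC-bin centring (of fold changes and ratios) and the ratio of *Slc32a1* to *Gad1*. Python 3.11.15 with matplotlib 3.10.9 drew the figures.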

Additional observations from a re-analysis of the deposited data

How the results depend on the processing

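Beside the reported setting, 23 others were tried, 19 planned and 4 added after seeing the data. None of the 9 genes was called in any of them in any of the 3 comparisons by limma, and the smallest adjusted p was 0.163. Over all tested genes, calls went from 1 to between 0 and 6 in Cre/+ against +/+, from 1 to between 1 and 16 in Cre/Cre against +/+, and from 2 to between 1 and 18 in Cre/Cre against Cre/+. The highest counts of 16 and 18 came from the libraries with *Xist*, which leave 1 Cre/Cre library, assumed to vary like the others. The log2 fold change of *Slc32a1* stayed below 0 in every setting, from -0.20 to -0.02 in Cre/+ and from -0.21 to -0.05 in Cre/Cre. Its smallest size in both came from GC-bin centring, which by construction takes out what runs with GC content. In the simulated data, made for Cre/Cre against +/+ and over genes of all levels, no gene changed by 1.2-fold was called.

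The replicate numbers gave no sign of pairing the samples, though 3 libraries per genotype are too few to exclude a pairing. Deviations from the genotype means of same-numbered libraries correlated at -0.12 to 0.13, and those of other pairs at -0.19 to 0.26. With the replicate number as a block, none of the 9 genes was called, and *Slc32a1* was at -0.17 (limma adjusted p = 0.480) in Cre/+ and -0.16 (limma adjusted p = 0.712) in Cre/Cre. Over all genes the block gave 1, 1 and 1 calls.

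Of 621 alternative log2 fold changes, 52 turned the direction, all of fold changes of at most 0.12 in size as reported, and 12 of the 27 fold changes never turned. The cause was not tested. In Cre/+ against +/+, GC-bin centring turned *Chat* to 0.067, *Slc18a3* to 0.092, *Slc5a7* to -0.035 and *Slc17a8* to -0.089, while *Slc17a8* was at -0.0047 with FPKM and -0.015 in libraries with *Xist*. In Cre/Cre against +/+, GC-bin centring turned *Slc6a9* to 0.024 and *Slc18a3* to 0.061, FPKM turned *Slc17a8* to -0.030, and libraries with *Xist* turned *Gad2* to 0.020. *Gad1* turned there to 0.0098 without short RNA genes and to 0.0064 with median-ratio scaling without Cre/Cre replicate 1. In Cre/Cre against Cre/+, *Slc32a1* turned to -0.032 with GC-bin centring, -0.014 with FPKM and -0.0058 with median-ratio scaling without Cre/Cre replicate 1. *Slc18a3* turned to -0.030, -0.0089 and -0.078 with these 3, to -0.054 in libraries with *Xist* and to -0.0042 with *Xist* as a covariate. *Slc17a8* turned to 0.095 with GC-bin centring, 0.027 with median-ratio scaling, 0.14 with it and without Cre/Cre replicate 1, 0.041 without short RNA genes, 0.042 with *Xist* as a covariate and 0.27 in libraries with *Xist*. *Slc5a7* turned to -0.0029 with FPKM and *Chat* to 0.029 in libraries with *Xist*.

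Leaving out each library in turn gave ranges that crossed 0. In Cre/+ they were -0.11 to 0.098 for *Chat*, -0.14 to 0.025 for *Slc18a3*, -0.0075 to 0.23 for *Slc5a7* and -0.041 to 0.076 for *Slc17a8*. In Cre/Cre against +/+ they were -0.094 to 0.031 for *Gad1*, -0.11 to 0.010 for *Gad2*, -0.18 to 0.010 for *Chat*, -0.13 to 0.039 for *Slc18a3* and -0.11 to 0.18 for *Slc17a8*. In Cre/Cre against Cre/+ they were -0.0013 to 0.021 for *Slc32a1*, -0.17 to 0.012 for *Chat*, -0.061 to 0.087 for *Slc18a3*, -0.052 to 0.085 for *Slc5a7* and -0.13 to 0.16 for *Slc17a8*.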
